A study of Mus musculus with 3 samples.

Results

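Broad isolated Ring1B peaks are single, wide stretches of Ring1B-bound chromatin that stand apart from other Ring1B peaks in mouse neural progenitor cells. They were chosen by peak width and spacing in the Ring1B list alone. A peak had to measure at least 2200 bp from start to end, and the next Ring1B peak on either side of the same chromosome had to lie more than 5000 bp away. Of the 11790 Ring1B peaks, 865 met both conditions, which is 7.34% of the list. They covered 2.5 Mb, or 14.0% of all Ring1B-covered sequence. Width and spacing therefore describe the selection and were not tested.

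The chromatin came from neural progenitors derived in culture from the embryonic stem cell line E14TG2a and maintained with the growth factors EGF and FGF2. Separate libraries were made with an antibody to Ring1B, an antibody to Zrf1 and rabbit IgG, 1 library each, with no genetic change or drug treatment named in the labels. The Ring1B and Zrf1 peak lists were analysed, with 11790 and 11647 peaks, and the IgG library was not analysed here. With 1 library per antibody there is no error between samples, and read depth is unknown from the intervals, so the 95% intervals given with percentages are exact binomial (Clopper-Pearson) ones that cover counting error only. Marker genes of the cell type cannot be read from peak intervals.

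Ring1B, the product of Rnf2, is a catalytic subunit of Polycomb repressive complex 1 and attaches ubiquitin to histone H2A. Polycomb complexes are best known for keeping developmental regulator genes silent, commonly over long unmethylated CpG-rich stretches, and broad Polycomb domains often surround such genes in stem and progenitor cells. Zrf1, the product of Dnajc2, carries a J domain and can bind ubiquitylated H2A. In other settings it has been described as displacing Polycomb complexes when genes are activated during differentiation. The overlap of Zrf1 with these peaks was not part of the selection, so it is the measurement that says something independent about them.

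Most of the broad isolated peaks lay close to the width limit. The median was 2589 bp wide (quartiles 2356 and 3018 bp), against 1324 bp for the whole Ring1B list. In all, 354 of them (40.9%) were under 2500 bp and 641 (74.1%) under 3000 bp. Only 69 reached 4000 bp, 30 reached 5000 bp and 3 exceeded 10000 bp. The narrowest were 2 peaks of exactly 2200 bp (positions are in mouse build mm9, as deposited): chr15:76552395-76554595, 88.8% of which lay under Zrf1, and chr16:85172418-85174618, which had none. Just outside the limit stood isolated peaks of 2199 bp and 2198 bp on chromosome 5 and 2197 bp on chromosome 1. There was no break in the widths at the limit.

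Isolation was a matter of scale. The median distance to the nearest other Ring1B peak was 39923 bp (quartiles 15640 and 103567 bp), close to the 44983 bp of the isolated peaks under 2200 bp. Of the 865 peaks, 127 (14.7%) had a Ring1B neighbour within 10000 bp and 266 (30.8%) within 20000 bp, while 220 (25.4%) had none within 100000 bp and 12 had none within 1000000 bp. The least isolated was chr7:86687708-86690343, with 5009 bp to its neighbour. Broad peaks excluded most narrowly had gaps of 4988 bp, among them a facing pair, chr19:5559428-5561949 and chr19:5566937-5569345.

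Very wide Ring1B peaks were mostly not isolated. Among all Ring1B peaks from 2200 to under 2500 bp, 354 of 489 stood alone by the gap rule (72.4%, 95% interval 68.2 to 76.3%). The share was 51.2% (155 of 303) from 3000 to under 4000 bp and 25.7% (27 of 105, 95% interval 17.7 to 35.2%) from 5000 to under 10000 bp. Of the 12 Ring1B peaks of 10000 bp or more, 3 stood alone. Under 2200 bp, 77.9% of peaks were isolated. The broad isolated peaks thus lay mostly at the lower end of the broad widths, and most, but not all, of the widest Ring1B peaks had a neighbouring peak within 5 kb. Where a caller splits 1 domain into several intervals, the pieces count as neighbours. Whether splitting has a part in this was not tested.

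**Figure D1:**
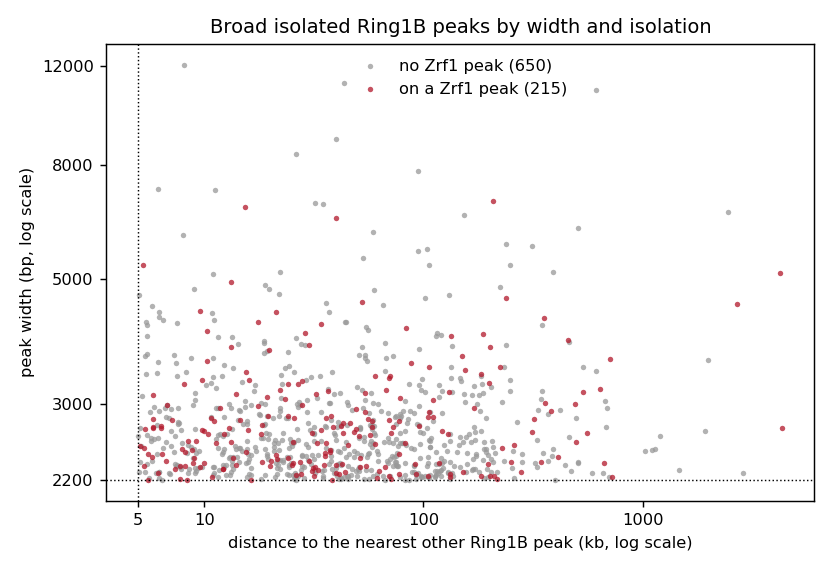
Each point is 1 of the 865 broad isolated Ring1B peaks, placed by its distance to the nearest other Ring1B peak (kb, log scale) and its width (bp, log scale), in red where it overlaps a Zrf1 peak (215) and in grey where it does not (650). Dotted lines mark the limits of 5 kb and 2200 bp; red points occur at all distances but stop at a width of 6882 bp.

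The neighbours of these peaks were ordinary in width. The nearest other Ring1B peak had a median width of 1296 bp, and in 97 of 865 cases (11.2%, 95% interval 9.19 to 13.5%) it was itself at least 2200 bp wide. For isolated peaks under 2200 bp the share was 10.4% (840 of 8050), and for broad peaks with a neighbour within 5 kb it was 30.6% (179 of 585, 95% interval 26.9 to 34.5%). Over all distances together, the broad isolated peaks thus resembled the narrower isolated ones in their neighbours, and these shares were not tested. Among broad isolated peaks the share showed no steady trend with distance. It was 13.4% where the neighbour lay 5 to 10 kb away, 18.7% at 10 to 20 kb, 8.33% at 20 to 50 kb, 5.52% at 50 to 100 kb and 12.3% beyond 100 kb. The narrower isolated peaks gave 13.1%, 10%, 9.77%, 10.1% and 10.7% over the same distances. At 10 to 20 kb the 95% intervals were apart, 12.6 to 26.2% for broad and 8.4 to 11.8% for narrower isolated peaks. In the other distance classes they overlapped.

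Zrf1 was found on a minority of the broad isolated peaks, but by direct overlap more often than on other Ring1B peaks. At least 1 bp of a Zrf1 peak overlapped 215 of the 865 (24.9%, 95% interval 22.0 to 27.9%), and 650 had none. The background over all 11790 Ring1B peaks was 16.6%. Isolated peaks under 2200 bp had Zrf1 in 1345 of 8050 cases (16.7%, 95% interval 15.9 to 17.5%). Broad peaks with a neighbour within 5 kb had it in 102 of 585 cases (17.4%, 95% interval 14.4 to 20.8%). By this rule of any overlap, the interval of the broad isolated peaks overlapped neither of the others. Since peaks of 1 library are not replicates, no p-value is given for these differences.

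A longer interval has more room to meet a Zrf1 peak, so the comparison was repeated over equal lengths. When only the central 200 bp of each Ring1B peak were considered, Zrf1 overlapped 165 of the 865 broad isolated peaks (19.1%, 95% interval 16.5 to 21.9%), against 15.1% of all Ring1B peaks. It overlapped 15.7% (95% interval 14.9 to 16.5%) of isolated peaks under 2200 bp and 12.3% (72 of 585, 95% interval 9.76 to 15.2%) of the broad peaks with close neighbours. The intervals of the 2 kinds of isolated peak thus met at 16.5%, as rounded, and were no longer clearly apart. That of the broad peaks with close neighbours stayed below. The central window has a limit of its own, since it misses Zrf1 toward the edges of a wide peak. It kept 165 of the 215 broad isolated peaks with any overlap, but 1265 of the 1345 narrower ones. The Zrf1 centres lay a median of 427 bp from the Ring1B centre on the former and 134 bp on the latter. Counted in bases, 13.2% of the sequence in broad isolated peaks lay under Zrf1, nearly the 12.8% of the narrower isolated peaks, and 8.45% in broad peaks with close neighbours. The 2 kinds of isolated peak therefore differed most in the share of peaks touched by Zrf1 and least in the share of bases.

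Within the isolated peaks, the share with Zrf1 tended to be higher in wider classes up to 5000 bp, though not in every class. It was 14.3% (106 of 742) from 600 to under 800 bp, 17.4% (224 of 1290) from 1200 to under 1400 bp and 21.9% (80 of 366) from 2000 to under 2200 bp. From 2200 to under 2400 bp it was 24.1% (64 of 266), and from 2400 to under 2700 bp it was 21.2% (49 of 231). It reached 29.6% (59 of 199, 95% interval 23.4 to 36.5%) from 2700 to under 3200 bp. From 3200 to under 4000 bp it was 26% (26 of 100). It was 30.8% (12 of 39, 95% interval 17 to 47.6%) from 4000 to under 5000 bp. In the central 200 bp the shares ran from 13.6% at 600 to under 800 bp to 22.1% (44 of 199) at 2700 to under 3200 bp. They stood at 17.0% (17 of 100) from 3200 to under 4000 bp and 15.4% (6 of 39) from 4000 to under 5000 bp. The central 200 bp are a smaller part of a wider peak, so more Zrf1 toward the edges can go uncounted there.

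The widest class of isolated peaks had the smallest part of its sequence under Zrf1. Of the 30 peaks of 5000 bp or more, 5 overlapped a Zrf1 peak (16.7%, 95% interval 5.64 to 34.7%), 3 of them in the central 200 bp. Zrf1 lay over 2.92% of their bases, against 12.2% to 15.9% in the 5 width classes from 2200 to under 5000 bp. With only 30 peaks, the interval of their share includes that of all broad isolated peaks, so a lower share of peaks is not shown.

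**Figure D2:**
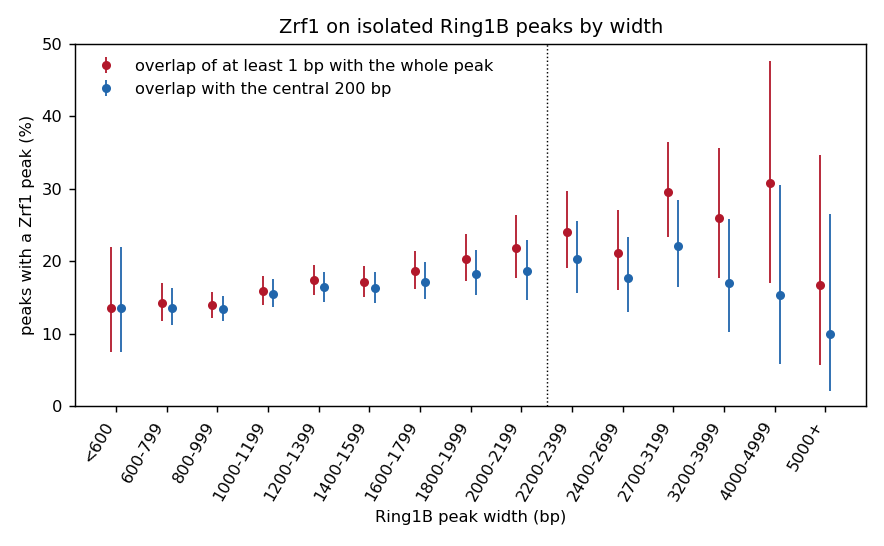
Percentage of isolated Ring1B peaks that overlap a Zrf1 peak, by Ring1B width class (bp), with exact 95% binomial intervals; red counts any overlap of at least 1 bp, blue only the central 200 bp, and the dotted line marks 2200 bp. Red values go from 14.3% at 600 to under 800 bp to 29.6% at 2700 to under 3200 bp. Just above the dotted line the value is 24.1%, and in the next class 21.2%. From 3200 to under 4000 bp it is 26%, and from 4000 to under 5000 bp 30.8%. The class of 5000 bp and more stands at 16.7% with a wide interval.

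The 15 widest of the broad isolated peaks measured 6425 to 12044 bp, and 3 of them overlapped Zrf1. The widest, at chr5:102085759-102097803, had its nearest Zrf1 peak 217756 bp away and another Ring1B peak 8090 bp away. The next was chr4:109646514-109657691 (11177 bp), with Zrf1 at 34905 bp. chr15:35222390-35233265 (10875 bp) was far from both, with 613281 bp to the next Ring1B peak and 162127 bp to Zrf1. These 3 exceed 10000 bp and none carried Zrf1.

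Behind them came chr14:67847966-67856842 (8876 bp), chr9:55386785-55395127 (8342 bp) and chr5:67485099-67492902 (7803 bp), with Zrf1 at 24944, 26385 and 9390 bp. chr12:57631864-57639118 measured 7254 bp and had Zrf1 at 74488 bp. chr2:31490648-31497863 (7215 bp) missed a Zrf1 peak by 1282 bp. The remaining 4 without Zrf1 were chr5:108149672-108156521, chr11:33098684-33105490, chr17:39979537-39986122 and chr2:146042845-146049354. Of the 12 without Zrf1, 8 had a Zrf1 peak within 50 kb.

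The 3 that did overlap carried 1 small Zrf1 peak each, well inside their borders. At chr2:160188963-160195845, a Ring1B peak of 6882 bp held a Zrf1 peak of 1130 bp, 2533 bp from its left and 3219 bp from its right edge. At chr17:34253955-34260685, Zrf1 covered 1238 of 6730 bp, with margins of 2071 and 3421 bp. At chr16:91223067-91229492, Zrf1 covered 886 of 6425 bp. In these peaks Zrf1 lay over 16.4%, 18.4% and 13.8% of the Ring1B peak, so Ring1B extended for kilobases beyond Zrf1 on both sides. Genes and sequence at these and the other positions given were not analysed here.

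Other broad isolated peaks lay largely under Zrf1. The largest shared stretch was at chr11:69221609-69226009, where a Zrf1 peak of 3975 bp lay within a Ring1B peak of 4400 bp and covered 90.3% of it. At chr6:125113678-125117882, Zrf1 covered 3427 of 4204 bp, or 81.5%, and began 777 bp inside the Ring1B peak. At chr7:26003527-26006944 it covered 3217 of 3417 bp, or 94.1%. At chr2:151319016-151322090 it covered 3044 of 3074 bp, or 99.0%. In these 4 regions the centres of the 2 intervals lay 106, 401, 146 and 134 bp apart.

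The rest of the 10 with most shared bases were chr17:35093878-35097189, chr2:30782486-30785672, chr10:17441207-17444703, chr3:61166988-61170006, chr8:72106935-72109767 and chr19:6275284-6278589. Their shared stretches ran from 2761 to 2989 bp and from 81.7% to 98.5% of the Ring1B peak. They were 2832 to 4400 bp wide, so none was among the 15 widest.

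Over all 215 shared peaks, Zrf1 covered a median of 51.5% of the Ring1B peak (quartiles 36.1 and 73.0%). It covered at least 50% in 112 of them and the whole peak in 4. In the narrower isolated peaks with Zrf1, the median covered share was 80.0% (quartiles 62.4 and 93.4%), and in 178 of 1353 overlapping pairs the Ring1B peak lay wholly inside Zrf1. In broad peaks with a neighbour within 5 kb the median was 47.1% (quartiles 32.7 and 72.9%). Shared broad isolated peaks thus usually kept stretches of Ring1B without Zrf1, as did the shared broad peaks with close neighbours. The covered share depends on Ring1B width, which chose the peaks, so the difference from narrower peaks says nothing independent about them.

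Shared peaks were hardly wider than the others. The 215 on Zrf1 had a median width of 2680 bp (quartiles 2362.5 and 3083.5 bp), and the 650 without it 2577 bp (quartiles 2348 and 3004.5 bp). The difference of 103 bp was small beside the spread, and it turned to -8 bp when sharing was defined by the central 200 bp and to -18 bp among peaks of at least 2500 bp.

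The Zrf1 peaks that lay on broad isolated Ring1B peaks were wide for their own list. There were 227 of them, which is 11.5% of the 1976 Zrf1 peaks on any Ring1B peak and 1.95% of the Zrf1 list. At the median they measured 1348 bp (quartiles 1026.5 and 1883.5 bp), against 796 bp for the list and 1057 bp (quartiles 854 and 1341 bp) for Zrf1 peaks on narrower isolated Ring1B peaks. In all, 170 of the 227 (74.9%) reached the upper quartile of the Zrf1 list, 1027 bp, against 53.7% (726 of 1353) on narrower isolated peaks. On broad peaks with close neighbours the share was 73.9% (85 of 115 pairs). Among pairs that meet in the central 200 bp, the medians were 1564.5 bp on broad isolated and 1078 bp on narrower isolated peaks. Zrf1 width took no part in the choice of the Ring1B peaks. The Zrf1 peaks compared were taken by overlap, however, and a wider Zrf1 peak overlaps more easily. With the central 200 bp, the median rose more on broad isolated peaks (1348 to 1564.5 bp) than on narrower ones (1057 to 1078 bp). These widths are thus not free of that choice by overlap. The difference was not tested because the peaks come from 1 library each.

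Within the Ring1B peak, Zrf1 lay nearer the centre than the edge. The median distance between the centres was 427 bp (quartiles 193 and 747 bp), which was 31.8% of the way from the Ring1B centre to its edge. Of the 227 pairs, 91 (40.1%) had the Zrf1 centre within 25% of that way, 69 (30.4%) from 25 to 50%, 49 (21.6%) from 50 to 75% and 14 (6.17%) beyond 75%, while 4 had it outside the Ring1B peak. In 152 pairs (67.0%) the whole Zrf1 peak lay inside the Ring1B peak, and in 4 the Ring1B peak lay inside Zrf1. On narrower isolated peaks, the innermost 25% held 54.9% of the 1353 pairs, and 36.0% of the Zrf1 peaks lay wholly inside. On broad peaks with close neighbours the values were 34.8% and 74.8% of 115 pairs. A wider Ring1B peak has more room for a whole Zrf1 peak, and width chose the peaks.

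**Figure D3:**
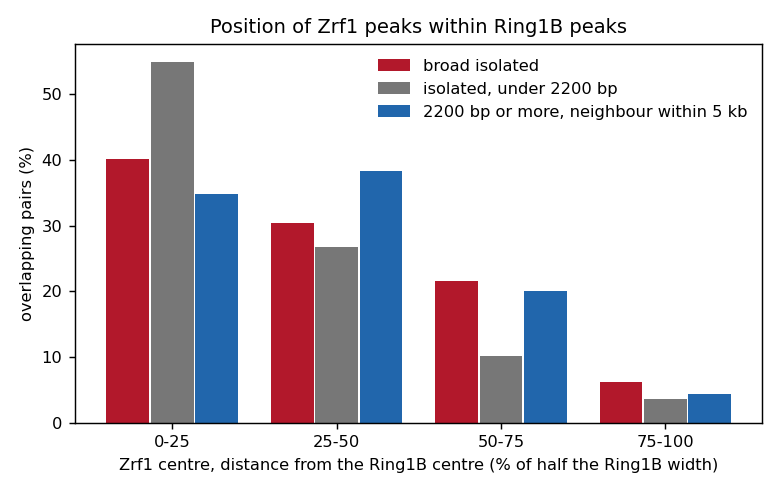
Bars give the percentage of overlapping Ring1B and Zrf1 pairs by how far the Zrf1 centre lies from the Ring1B centre, as a percentage of the distance from the Ring1B centre to its edge, for 227 pairs on broad isolated, 1353 on narrower isolated and 115 on broad clustered Ring1B peaks; pairs with the Zrf1 centre outside are not drawn. Bars of the broad isolated peaks fall from 40.1% in the innermost class to 6.17% in the outermost.

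A second Zrf1 peak was rare. Of the 215 shared peaks, 203 carried 1 Zrf1 peak and 12 carried 2, and no peak carried more. These 12 were singled out after their values had been seen. The widest was chr11:120208313-120212135 (3822 bp), where Zrf1 peaks of 1309 and 1884 bp covered 64.3% of the Ring1B peak. At chr4:155026422-155029688 and chr7:91030624-91033609, the Zrf1 peaks sat toward either end and left the central 200 bp free. At chr8:72897557-72901309, both Zrf1 peaks lay inside Ring1B. At chr15:76035568-76038097, Zrf1 peaks of 1869 and 3338 bp ran past the left and the right end of a Ring1B peak of 2529 bp. Of the 12, 9 had another Ring1B peak within 20 kb, against 266 of all 865.

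Peaks without Zrf1 were seldom close misses. Adding Zrf1 peaks within 1 kb raised the count only from 215 to 219 of 865 (25.3%, against 18.5% of all Ring1B peaks). Within 50 kb there was a Zrf1 peak for 607 (70.2%, 95% interval 67.0 to 73.2%), against 62.6% of all Ring1B peaks and 61.0% (95% interval 59.9 to 62.0%) of the narrower isolated peaks. The 650 peaks without Zrf1 had a median distance of 35059.5 bp to the nearest one (quartiles 14127.5 and 87521.2 bp), and the 6705 narrower isolated peaks without it 44788 bp.

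Zrf1 centres were dense inside the broad isolated peaks and far fewer just beyond their edges, which was not particular to these peaks. Inside, there were 223 Zrf1 centres in 2.5 Mb, or 89.1 per Mb. The narrower isolated peaks held more, 125 per Mb, with 8.94 per Mb in the first 0.5 kb outside. Broad peaks with close neighbours held 51.6 per Mb inside. In the first 0.5 kb outside the broad isolated peaks there were 5, or 5.78 per Mb. Between 0.5 and 1 kb there were 3, or 3.47 per Mb. The density was 7.51 per Mb from 2 to 5 kb and 13.2 per Mb from 5 to 10 kb, then 12.0 from 20 to 50 kb and 11.3 from 100 to 200 kb. The mean over the autosomes was 4.68 per Mb. Flanks of neighbouring peaks overlap at the longer distances, so a Zrf1 peak can be counted more than once there.

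By the selection rule, another Ring1B peak can lie only past 5 kb. With Zrf1 peaks that touch any Ring1B peak left out, a smaller rise past that distance was still seen, and the densities were 7.51 per Mb from 2 to 5 kb, 10.2 from 5 to 10 kb, 8.92 from 20 to 50 kb and 8.64 from 100 to 200 kb. The narrower isolated peaks gave 7.85, 8.88, 8.06 and 7.69 per Mb over the same distances. By these values the flanks of the broad isolated peaks held slightly more Zrf1 than those of the narrower ones from 5 kb out to 200 kb, and slightly less within 5 kb. From 0.5 to 1 kb the values rest on 3 Zrf1 centres for the broad isolated peaks and 57 for the narrower ones.

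**Figure D4:**
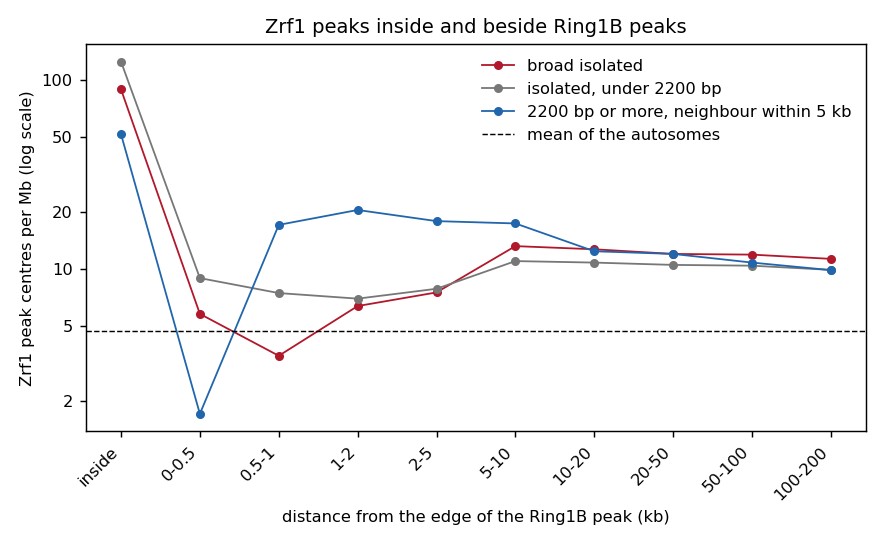
Zrf1 peak centres per Mb (log scale) inside Ring1B peaks and in flanking bands at growing distance from the edge (kb), for broad isolated (red), narrower isolated (grey) and broad clustered (blue) Ring1B peaks, with the mean of the autosomes as a dashed line. For broad isolated peaks the value falls from 89.1 inside to 3.47 at 0.5 to 1 kb and levels at 11.3 to 13.2 from 5 kb on.

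No difference in Zrf1 by spacing could be shown for the broad isolated peaks. The share with Zrf1 was 29.1% (37 of 127, 95% interval 21.4 to 37.9%) where the nearest Ring1B peak lay 5 to 10 kb away. It was 24.5% (34 of 139) at 10 to 20 kb, 26.9% (58 of 216) at 20 to 50 kb, 20.9% (34 of 163) at 50 to 100 kb and 23.6% (52 of 220, 95% interval 18.2 to 29.8%) beyond 100 kb, with all intervals overlapping. Among narrower isolated peaks the share went from 19.1% (95% interval 16.4 to 21.9%) to 13.4% (274 of 2050, 95% interval 11.9 to 14.9%) over the same range. In each of the 5 distance classes the broad isolated peaks had the higher share by any overlap. In the central 200 bp they had the higher share in 4 classes, while at 10 to 20 kb it was 18.7% against 18.8%. A difference between the 2 trends was not tested.

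Some of the most remote peaks carried Zrf1. Of the 12 with no Ring1B peak within 1000000 bp, 3 overlapped it (25%, against 24.9% of all broad isolated peaks), and these 3 were among the 5 farthest from any Ring1B peak. chr6:77192491-77195217 stood 4341452 bp from its nearest Ring1B neighbour and had 740 bp under Zrf1. chr5:58106202-58111334, a peak of 5132 bp, stood 4223338 bp away and had 1183 bp under Zrf1. chr14:84843842-84848363, at 2691622 bp, had 756 bp. In none of these 3 did Zrf1 reach the central 200 bp. The other two were chr12:96932027-96934287, with Zrf1 383499 bp away, and chr17:39979537-39986122, which was also among the 15 widest and lay 2104274 bp from Zrf1. This chromosome 17 peak in particular was not checked against repeat annotation, and its width and isolation should be read with that limit. Repeat content was not analysed here for any other region either.

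Broad isolated peaks occurred on all 19 autosomes and on none of the X chromosome's 130 Ring1B peaks. Chromosome 11 had the most, 109 of its 1026 Ring1B peaks (10.6%, 95% interval 8.80 to 12.7%) and 0.895 per Mb. Chromosome 17 followed by share, with 54 of 532 (10.2%), and chromosome 5 had the smallest autosomal share, 39 of 734 (5.31%, 95% interval 3.81 to 7.19%). By length, chromosome 1 was the sparsest autosome, with 0.203 per Mb, and the mean of the autosomes was 0.350 per Mb. For the X chromosome's count of 0 of 130, an approximate upper bound is 2.31%. It was taken as 3 counts of the total and is not an exact binomial limit like the other intervals. Of autosomal Ring1B peaks, 7.42% (95% interval 6.95 to 7.91%) were broad and isolated.

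Ring1B peaks on the X chromosome were narrow. Of its 130 Ring1B peaks, 97 were isolated by the gap rule. The median width of the 130 was 978 bp, against 1329 bp on the autosomes, and the lowest autosomal median was 1252 bp, on chromosome 14. Only 3 X-linked peaks reached 2200 bp, with widths of 3277, 2583 and 2304 bp, and these had neighbours at 1623, 488 and 827 bp. Copy number and read depth of the X chromosome were not examined here, and their part in the smaller widths was not tested.

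The share of broad isolated peaks on Zrf1 varied among the autosomes with wide intervals. It was highest on chromosome 15, with 15 of 40 (37.5%, 95% interval 22.7 to 54.2%), and chromosome 11, with 36 of 109 (33.0%, 95% interval 24.3 to 42.7%). It was lowest on chromosome 13, with 2 of 28 (7.14%, 95% interval 0.877 to 23.5%), and chromosome 9, with 4 of 49 (8.16%, 95% interval 2.27 to 19.6%). Only the interval of chromosome 9 lay wholly below that of all broad isolated peaks. The ranking was not particular to the broad isolated peaks. Among all isolated Ring1B peaks of any width, chromosomes 15 (22.1%) and 11 (22%) were also the highest autosomes. Chromosomes 9 (12.3%) and 13 (13.5%) were also the lowest. Compared within each chromosome, broad isolated peaks had a higher share on Zrf1 than narrower isolated ones on 16 of 19 autosomes, with a median difference of 7.92 percentage points. The exceptions were chromosomes 9, 12 and 13. With the central 200 bp, they had the higher share on 13 of 19, with a median difference of 3.76 percentage points.

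**Figure D5:**
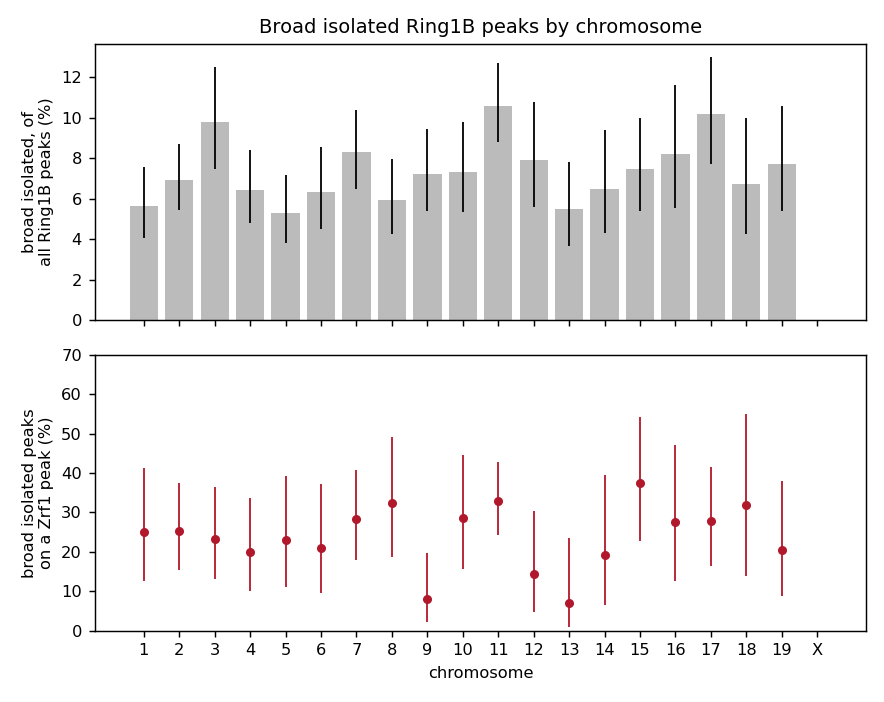
Upper panel, percentage of each chromosome's Ring1B peaks that are broad and isolated; lower panel, percentage of those peaks that overlap Zrf1; both by chromosome, with exact 95% binomial intervals (none is drawn for the X chromosome, which has 0 such peaks). Chromosomes 11 and 17 stand highest in the upper panel at 10.6% and 10.2%, and chromosomes 9 and 13 lowest in the lower panel at 8.16% and 7.14%.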

How the data were processed

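ChIP-seq peak lists for Ring1B and Zrf1 in neural progenitors were used, 1 library each. The authors deposited intervals only: each list holds 3 columns (chromosome, start, end), with no height or p-value, and whether starts count from 0 or 1 is not stated. Bowtie 0.12.7 and MACS 1.4.2 are named, with build mm9, per the submitters' processing notes. The sources used here do not give the threshold, control or filters, so widths may depend on them. Coordinates are as deposited in mm9, all within the lengths in GenomeInfoDb 1.38.1.

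Width is end minus start and gap is the distance to the adjacent Ring1B peak; a chromosome's first or last peak (2 of the 865) needed a gap on 1 side. Overlaps were computed in Python 3.11.15 with NumPy 2.4.6, pandas 2.3.3 and SciPy 1.17.1, checked with bedtools 2.31.1 (1956 Ring1B peaks on Zrf1 by both) and tested on simulated data, where 490 of 490 planted overlaps were found. Plots used matplotlib 3.10.9. Regions named were the 15 widest, the 10 with most bases on Zrf1, the 5 most distant and 3 on each side of each limit. The peaks and rules were chosen with earlier results of these data known, and the comparisons by flank, chromosome, neighbour and Zrf1 width after the lists were seen. Planned counts of genes, base composition and sequence were not made, because the gene and promoter tables at hand belong to another build, GRCm38.p6, and no position was carried over.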

Additional observations from a re-analysis of the deposited data

How the results depend on the processing

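The 865 broad isolated peaks became 511 with a width of at least 2500 bp and 224 with 3000 bp. There were 1231 with 2000 bp and 998, 738 and 599 with gaps of more than 2000, 10000 and 20000 bp. The share on Zrf1 (24.9%) stayed within its interval under those settings, with the Zrf1 centre inside, and with Zrf1 within 1 kb. It was 19.1% for the central 200 bp and 29.7% for Zrf1 within 5 kb. The share of bases under Zrf1 (13.2%) ran from 11.3% to 13.4% over the width and gap settings. The difference in median width between peaks on Zrf1 and the others (103 bp) was 39.5, -18 and -95.5 bp with widths of at least 2000, 2500 and 3000 bp, 80, 132 and 118 bp with gaps of more than 2000, 10000 and 20000 bp, 97.5 bp with the Zrf1 centre inside and -8 bp for overlap in the central 200 bp. The cause of these shifts was not tested. No paired analysis was possible because each antibody has 1 library. Depth is unknown, so a missing Zrf1 peak does not show that Zrf1 was absent.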
